A study of Mus musculus with 21 samples.

Results

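The genes described here are 31 genes that are read in brain tissue mainly as products of microglia, the resident macrophages of the brain. They were found by gene symbol in both deposited count tables, and all 31 were present among the 21872 symbols of each table. RNA was sequenced from mouse brain in 21 libraries, of which 12 were embryonic (day 18.5, E18.5) and 9 were taken 7 weeks after birth. Control groups received water (6 libraries at E18.5 and 5 at 7 weeks), and treated groups received trientine (TETA), a copper-chelating drug (6 libraries at E18.5 and 4 at 7 weeks), a condition that the labels call copper-deficient. The protocol names the prefrontal cortex of male mice only for 7 weeks, and region and sex at E18.5 are not stated. The labels used here give no strain, genotype, dose or route. They also do not say which libraries came from separate animals, so p-values measure only the spread between these libraries, which may be technical.

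Microglia derive from yolk sac progenitors, settle in the brain before birth and renew themselves locally. Their survival depends on CSF1 receptor signalling, fed in the brain mainly by the ligands IL-34 and CSF1, and their identity depends on the transcription factors PU.1, IRF8 and SALL1 and on TGF-beta. Resting microglia sense nucleotides and chemokines through receptors such as P2RY12 and CX3CR1, tag and clear synapses with complement C1q, and take up debris through TREM2, Fc receptors and a lysosomal apparatus.

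Libraries held 14678265 to 24308555 counts in the embryonic table and 17838051 to 24035857 in the postnatal table. The members together had 1786 to 3440 counts per library at E18.5 and 11068 to 15847 at 7 weeks, so single members rest on few counts before birth. Levels are given as CPM, counts divided by the scaled library size, with both ages scaled together. Cortical identity genes were present at both ages and lower at the later one: the 5 listed genes summed to 1381 to 1540 CPM in E18.5 control and 476 to 507 CPM in 7-week control, and 4 of 5 fell. The 7 hindbrain and spinal cord genes summed to at most 0.214 CPM per library at E18.5 and to 0.270 to 1.06 CPM at 7 weeks. Between the ages 1 of them, En2, passed the filter on low counts, but 0 passed within E18.5. En2 therefore entered through its 7-week counts, and the direction of its change in control (log2 2.85, SE 0.54) was fixed by the filter. Red blood cell genes were present: 5 genes, 4 of them globins, summed to 127 to 258 CPM in E18.5 control, 117 to 223 CPM in E18.5 TETA, 35.2 to 52.8 CPM in 7-week control and 31.5 to 51.0 CPM in 7-week TETA, and all 5 fell with age in control and in TETA. White blood cell lists were near 0: 10 monocyte and neutrophil genes summed to 0.246 to 2.80 CPM per library over the 4 groups, 9 lymphocyte genes summed to 0.0591 to 0.679 CPM, and no gene of either list passed the filter on low counts. In one library, E18.5 TETA replicate 3-2, border macrophage genes stood high, with 10 of 13 listed genes at their group's highest value and a sum of 16.8 CPM, against 8.86 to 12 CPM in the other TETA libraries of that age. The Mrc1 results, which use that library, are given with and without it.

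Promoter sequences are shown because PU.1, the product of Spi1, binds purine-rich elements in the promoters of many myeloid genes. RefSeq promoter entries (build GRCm38.p6) were matched by symbol for 22 of 31 members. The PU-box core GAGGAA, searched on both strands in the 250 bases upstream of each start, lay in 14 of 22 matched members (63.6%), against 25.9% of all 27025 genes in that table and 25.8% of 11576 genes tested between the ages. The composite ETS-IRF element (GGAA, any 2 bases, then GAAA), bound by PU.1 with IRF8 and its relatives, lay in 0 of 22 members and in 2.68% of all genes. A match describes letters in a window and is not evidence of binding. The windows below belong to the 3 members with the smallest p-values for TETA at 7 weeks (P2ry13, Mrc1, Cd68) and to a complement chain, a phagocytic receptor and a lysosomal protease (C1qb, Trem2, Ctss), chosen with the matches known. All 6 windows shown hold the core, and none is shown from the 8 matched members without it. Each is written 5′ to 3′ on the gene's strand, with the core or its reverse complement in capitals. P2ry13 lies at chr3:59210883-59211132 on the minus strand, Mrc1 at chr2:14229164-14229413 on the plus strand, Cd68 at chr11:69666171-69666420 on the minus strand, C1qb at chr4:136886201-136886450 on the minus strand, Trem2 at chr17:48346151-48346400 on the plus strand, and Ctss at chr3:95526536-95526785 on the plus strand.
P2ry13: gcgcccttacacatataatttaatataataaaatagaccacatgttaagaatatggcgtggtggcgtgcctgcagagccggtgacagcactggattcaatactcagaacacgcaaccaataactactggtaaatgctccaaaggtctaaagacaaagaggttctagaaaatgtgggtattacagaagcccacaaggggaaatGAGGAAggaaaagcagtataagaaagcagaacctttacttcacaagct
Mrc1: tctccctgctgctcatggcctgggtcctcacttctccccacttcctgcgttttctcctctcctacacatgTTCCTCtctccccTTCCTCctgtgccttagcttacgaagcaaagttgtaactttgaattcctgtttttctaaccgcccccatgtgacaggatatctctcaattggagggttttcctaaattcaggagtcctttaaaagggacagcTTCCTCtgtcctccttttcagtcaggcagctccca
Cd68: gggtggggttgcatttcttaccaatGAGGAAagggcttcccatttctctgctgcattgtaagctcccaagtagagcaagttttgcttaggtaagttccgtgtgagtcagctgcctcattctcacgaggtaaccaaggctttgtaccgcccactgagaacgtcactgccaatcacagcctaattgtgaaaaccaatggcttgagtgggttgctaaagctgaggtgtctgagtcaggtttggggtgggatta
C1qb: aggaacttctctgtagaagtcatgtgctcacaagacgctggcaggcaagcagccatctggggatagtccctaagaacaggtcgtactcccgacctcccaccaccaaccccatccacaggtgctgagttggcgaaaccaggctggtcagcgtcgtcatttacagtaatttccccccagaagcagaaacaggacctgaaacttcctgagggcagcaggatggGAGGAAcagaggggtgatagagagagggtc
Trem2: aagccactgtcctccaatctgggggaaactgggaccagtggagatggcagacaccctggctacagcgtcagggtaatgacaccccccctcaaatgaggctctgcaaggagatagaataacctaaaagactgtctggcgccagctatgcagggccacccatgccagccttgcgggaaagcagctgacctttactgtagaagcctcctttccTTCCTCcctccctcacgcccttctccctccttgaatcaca
Ctss: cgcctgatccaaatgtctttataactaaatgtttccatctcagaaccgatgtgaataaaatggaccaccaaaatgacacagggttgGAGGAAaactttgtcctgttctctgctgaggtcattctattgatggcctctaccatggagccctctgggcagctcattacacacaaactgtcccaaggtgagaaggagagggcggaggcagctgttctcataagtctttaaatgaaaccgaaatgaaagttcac
Mrc1 held 3 matches and the other windows shown held 1 each.

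In the 7-week control group, Ctss, a lysosomal cysteine protease, had the highest level per length of annotated exon, at 43.1 ± 1.9 CPM per kb (SD, n = 5). C1qa and C1qb, chains of the molecule that starts the classical complement pathway, followed at 33.6 ± 2.7 and 32.5 ± 1.5 CPM per kb, and Ptprc, which encodes the pan-leukocyte phosphatase CD45, was lowest at 0.196 ± 0.033 CPM per kb. In E18.5 control, C1qb was highest at 5.98 ± 0.52 CPM per kb (SD, n = 6). Sall1, a transcription factor of microglia that neural progenitors also make, came next at 5.40 ± 0.31 CPM per kb, followed by C1qa at 4.90 ± 0.38, and Ptprc was again lowest at 0.0567 ± 0.016. Most neighbours in these orders overlapped: adjacent members had separate ranges in 2 of 30 neighbouring pairs in E18.5 control and in 9 of 30 in 7-week control. Sall1 moved from rank 2 of 31 in E18.5 control to rank 21 in 7-week control.

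**Figure D1:**
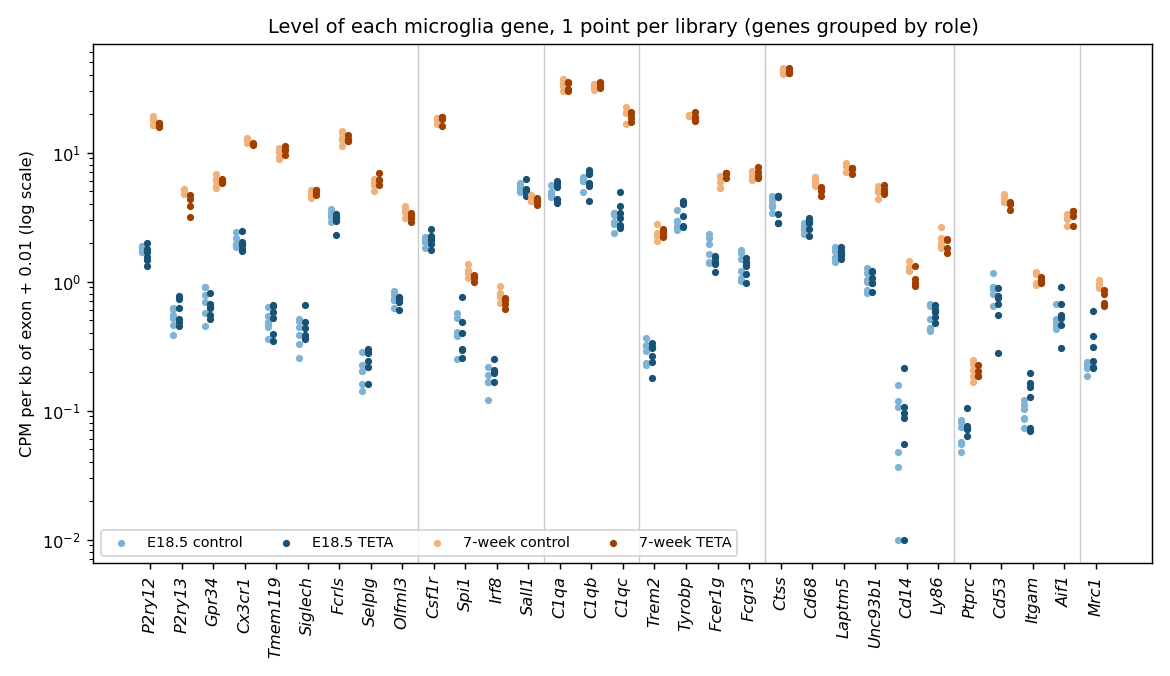
Level of each of the 31 genes in CPM per kb of exon plus 0.01 (log scale), 1 point per library, ordered by role and coloured by the 4 groups. Nearly all genes sit higher in the 7-week libraries than in the E18.5 libraries, Sall1 sits slightly lower, and control and TETA points of 1 age largely lie on each other.

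The first comparison asked how far the microglial genes differed between the ages. In control brain, 30 of 31 members were higher at 7 weeks than at E18.5 and 1, Sall1, was lower, each past an adjusted p of 0.05 (quasi-likelihood test of edgeR, Benjamini-Hochberg adjusted over 14660 genes; TETA against control within an age was adjusted over the genes tested at that age). Most genes differed between the ages: 44.0% of all tested genes were called higher and 45.3% lower, so passing the test sets the members little apart, and in 31 of 31 members the groups did not overlap, as in 79.5% of all genes. By size, 26 of 31 members were more than 4-fold higher, against 10.9% of all genes, and 11 were more than 8-fold higher, against 5.41%. The members' median log2 fold change was 2.62, against -0.02 for all genes. Summed over the 31 members, the level was 117 to 132 CPM at E18.5 and 627 to 703 CPM at 7 weeks. Without Sall1, which neural progenitors also make, the sum was 90.3 to 104 CPM and then 605 to 679 CPM. In bulk tissue, fewer cells of a type and less RNA per cell cannot be told apart, and here age, count table and sampled region cannot be told apart either.

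Surface receptors of resting microglia had the highest median among the roles with more than 1 member (log2 3.26 over 9 genes, 2.01 to 4.88). Selplg, the gene of P-selectin glycoprotein ligand 1, had 0.557, 0.821 and 1.18 CPM (lowest, median and highest) in E18.5 control and 26.4, 24.7, 21.5, 25.3 and 23.7 CPM in the 5 control libraries at 7 weeks. Those values lay far apart, and its rise of 29.5-fold was the largest among the members (log2 4.88, SE 0.11, adjusted p = 2.54e-27). Tmem119, a membrane protein used to tell microglia from other macrophages, had 0.810, 1.07 and 1.46 CPM before birth and 20.4, 25.1, 21.5, 24.0 and 23.2 CPM at 7 weeks. It rose 20.3-fold (log2 4.35, SE 0.11, adjusted p = 1.09e-26), with no overlap. Siglech, a sialic acid receptor that signals through TYROBP, had 0.825, 1.37 and 1.70 CPM and then 17.2, 16.3, 15.0, 16.8 and 15.6 CPM. It rose 12.1-fold (log2 3.6, SE 0.12, adjusted p = 1.51e-23).

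The ADP receptor P2ry12, through which processes reach towards injury, had 4.26, 4.59 and 4.78 CPM in E18.5 control and 45.9, 49.0, 41.7, 45.9 and 41.9 CPM in 7-week control. It rose 9.90-fold (log2 3.31, SE 0.067, adjusted p = 6.43e-29), with no overlap. P2ry13, its neighbour and a further ADP receptor, rose 9.56-fold (log2 3.26, SE 0.12, adjusted p = 7.65e-22). Cx3cr1, the receptor for the neuronal chemokine fractalkine, had 8.31, 8.77 and 10.8 CPM and then 56.8, 57.2, 52.9, 56.8 and 58.5 CPM. Its rise of 6.16-fold (log2 2.62, SE 0.063, adjusted p = 6.90e-27) was equal to the members' median. Gpr34, a lysophosphatidylserine receptor, Olfml3, a secreted olfactomedin-like protein, and Fcrls, an Fc receptor-like scavenger protein, rose by log2 3.08, 2.26 and 2.01.

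Csf1r, the receptor on which microglial survival depends, had 10.4, 12.1 and 12.8 CPM in E18.5 control and 107, 104, 96.1, 103 and 107 CPM in 7-week control. It rose 8.65-fold (log2 3.11, SE 0.063, adjusted p = 5.12e-29) and had the smallest p among the members. The transcription factors rose less or fell: Irf8 rose by log2 2.27 (SE 0.13) and Spi1, which encodes PU.1, by log2 1.5 (SE 0.19). Sall1 had 25.8, 28.8 and 30.5 CPM in E18.5 control and 23.0, 24.4, 22.5, 22.3 and 22.1 CPM in 7-week control. It fell to 0.802 of its embryonic level (log2 -0.32, SE 0.06, adjusted p = 1.39e-05), and every 7-week control value lay under every E18.5 control value.

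The 3 C1q chains rose together. C1qa had 4.69, 5.04 and 5.82 CPM at E18.5 and 34.2, 35.9, 31.1, 35.0 and 38.8 CPM at 7 weeks (log2 2.79, SE 0.08, adjusted p = 6.33e-25). C1qb had 5.40, 6.62 and 6.96 CPM and then 32.9, 36.7, 35.1, 35.0 and 36.9 CPM (log2 2.44, SE 0.08, adjusted p = 2.27e-23). The chains are encoded side by side on chromosome 4 (GRCm38, 136880129 to 136898803, minus strand). C1qc had 4.58, 5.94 and 6.56 CPM and then 39.4, 39.0, 32.2, 39.8 and 43.6 CPM (log2 2.72, SE 0.10, adjusted p = 1.71e-21).

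Trem2, a receptor for lipids and apolipoproteins on phagocytes, had 1.07, 1.45 and 1.76 CPM at E18.5 and 11.3, 13.8, 11.1, 11.8 and 10.2 CPM at 7 weeks (log2 3.06, SE 0.12, adjusted p = 2.00e-21). Its signalling adaptor Tyrobp had 1.66, 1.88 and 2.39 CPM and then 12.8, 13, 12.7, 13 and 12.9 CPM (log2 2.76, SE 0.10, adjusted p = 4.16e-22). The 5 Tyrobp values at 7 weeks were nearly equal. Fcgr3, a low-affinity IgG receptor, rose by log2 2.29 and Fcer1g, the common signalling chain of Fc receptors, by log2 1.72.

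Lysosomal and innate sensing genes covered a wide range. Ctss rose by log2 3.45 (SE 0.082), while Cd68, a heavily glycosylated lysosomal protein, had the smallest rise of the members, from 2.94, 3.27 and 3.57 CPM to 6.92, 7.28, 8.16, 8.15 and 7.83 CPM (log2 1.22, SE 0.089, adjusted p = 4.28e-14). Laptm5 and Unc93b1, which work in lysosomal trafficking and in the delivery of nucleic acid sensing receptors, rose by log2 2.22 and 2.30, and Ly86, a partner of the receptor RP105, rose by log2 2.05. Cd14, the co-receptor for bacterial lipopolysaccharide, was barely present before birth, with 0 to 6 counts per library (0, 0.117 and 0.256 CPM), and had 2.21, 2.48, 2.1, 2.16 and 2.08 CPM at 7 weeks. Its rise (log2 4.12, SE 0.32, adjusted p = 1.83e-13) carries the largest standard error of the 31. Cd14 did not pass the filter on low counts within E18.5, so it was tested between the ages through its 7-week counts.

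Among myeloid genes shared with other leukocytes, Itgam, the alpha chain of complement receptor 3, had 0.314, 0.428 and 0.557 CPM at E18.5 and 5.76, 4.88, 4.70, 5.88 and 5.66 CPM at 7 weeks (log2 3.58, SE 0.18, adjusted p = 1.62e-18). The calcium-binding protein gene Aif1, whose product is the histological marker IBA1, rose by log2 2.63, the tetraspanin gene Cd53 by log2 2.33 and Ptprc by log2 1.80. Mrc1, the mannose receptor gene that marks border-associated macrophages of the meninges and vessels more than mature microglia, had 1.11, 1.35 and 1.45 CPM and then 5.99, 5.63, 5.67, 5.99 and 6.43 CPM (log2 2.17, SE 0.18, adjusted p = 6.54e-13).

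Border macrophages carry several of these genes, and the sum of 13 listed markers of theirs moved the same way in control. It went from 9.05 to 11.5 CPM at E18.5 to 32.5 to 35.6 CPM at 7 weeks. All 11 border macrophage genes tested between the ages rose, with a median log2 fold change of 2.89. Only 2 of them passed the filter on low counts within E18.5. The others entered the test mainly through their 7-week counts, so their rise was largely fixed by the filter. Genes of other cell types rose as well in control: 6 of 6 astrocyte genes (median log2 fold change 2.67), 5 of 5 oligodendrocyte genes (8.39), 7 of 7 meningeal and choroid plexus genes (2.63), 5 of 6 neuronal genes (2.16) and 10 of 12 striatal neuron genes (0.92), against 44.0% of all genes called higher. Within E18.5, 3 of 5 oligodendrocyte genes and 4 of 7 meningeal and choroid plexus genes passed the filter on low counts. The rise of the rest of these 2 lists was largely fixed by the filter. Endothelial and mural genes did not rise as a list, with 2 of 6 higher and 2 lower (median 0.03) and sums of 238 to 256 CPM at E18.5 and 233 to 265 CPM at 7 weeks. The part of these cell types in the members' rise was not tested. Beyond the members, 21 of 22 further microglia genes were higher at 7 weeks, with a lower median log2 fold change of 1.47. In the list of CSF1 receptor ligands and the TGF-beta axis, 9 of 11 genes were higher and 2 lower. Il34, the main neuronal ligand of the CSF1 receptor, rose by log2 5.36 (SE 0.079, adjusted p = 1.30e-32), Cx3cl1, which encodes fractalkine, by log2 4.26 and Csf1 by log2 1.49.

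In the TETA groups, which share no library with that comparison, 30 of 31 members were again higher at 7 weeks (43.6% of all genes) and Sall1 again lower (log2 -0.31, SE 0.065; 44.5% of all genes were lower). The median log2 fold change was 2.46, and 24 members were more than 4-fold higher, against 10.7% of all genes, and 10 more than 8-fold, against 5.27%. Selplg and Tmem119 led again, at log2 4.70 and 4.31. The member whose estimates stood furthest apart between the treatments was Mrc1, at log2 1.2 (SE 0.18) in TETA (log2 1.48 without E18.5 TETA replicate 3-2) and 2.17 in control, described below with the test of that difference.

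**Figure D2:**
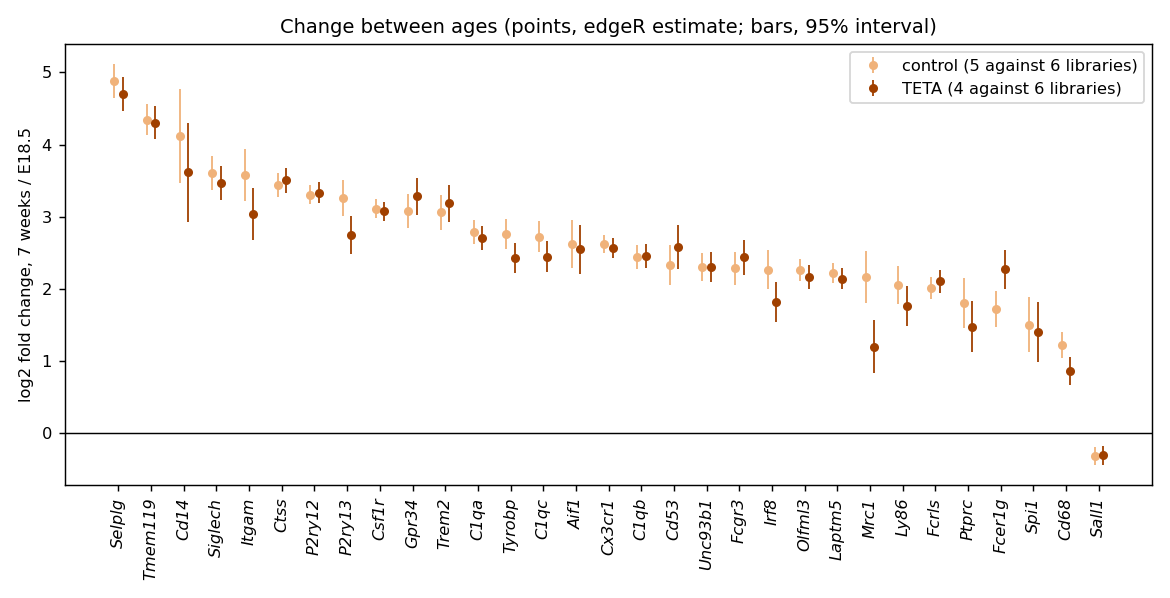
Log2 fold change from E18.5 to 7 weeks for each gene in control and in TETA libraries, with 95% intervals from the edgeR fit. Values run from 4.88 for Selplg to -0.32 for Sall1 in control, and the widest gap between the 2 treatments is at Mrc1.

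Dividing each member by Csf1r in the same library showed which members rose more or less than that receptor. In control brain 3 of 30 ratios were higher at 7 weeks without overlap, against 2.89% of all genes, and 20 of 30 were lower, against 91.3% of all genes. Selplg per Csf1r was 3.40-fold higher, with 0.0478 to 0.0924 at E18.5 and 0.221 to 0.246 at 7 weeks. Tmem119 per Csf1r was 2.36-fold higher (0.0683 to 0.125, then 0.190 to 0.241). Ctss per Csf1r was 1.25-fold higher (0.397 to 0.509, then 0.533 to 0.590). The other 7 ratios overlapped between the ages: Cd14 (2.14-fold, with few counts at E18.5), Itgam (1.41-fold), Siglech (1.39-fold), P2ry12 (1.13-fold), P2ry13 (1.12-fold), Trem2 (0.967-fold) and Gpr34 (0.962-fold). At the other end stood Sall1 (0.0925-fold), Cd68 (0.271-fold, from 0.264 to 0.291 down to 0.0645 to 0.0849), Spi1 (0.337-fold) and Fcer1g (0.376-fold), with Mrc1 at 0.513-fold and C1qc at 0.768-fold.

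**Figure D3:**
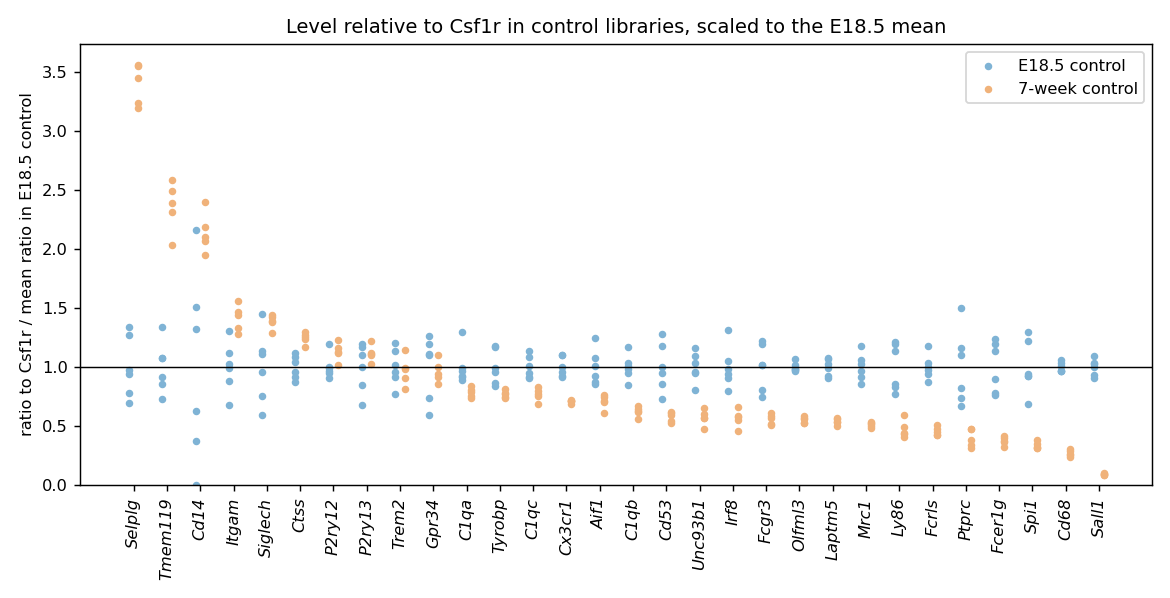
Level of each gene divided by that of Csf1r in the same control library, scaled so that the E18.5 mean is 1 (dimensionless), 1 point per library. Selplg and Tmem119 lie wholly above their E18.5 points at 7 weeks, P2ry12, P2ry13 and Trem2 overlap them, and Cd68 and Sall1 lie lowest.

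The next comparison asked whether microglial genes differed between TETA and control before birth. At E18.5, 0 of 30 tested members passed an adjusted p of 0.05 by edgeR, and 0 by DESeq2 or limma, and edgeR called 0.0% of all 13794 genes tested. At an unadjusted p under 0.05 there was 1 member, Mrc1, against 4.78% of all genes. Estimates lay on both sides of 0, 18 above and 12 below, with a median log2 fold change of 0.03 against -0.0027 for all genes. The summed level was 117 to 132 CPM in control and 117 to 135 CPM in TETA, and without Sall1 90.3 to 104 CPM and 86.2 to 109 CPM. No member's groups were free of overlap (0.319% of all genes). Cd14 was not tested at this age because its counts did not pass the filter.

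Canonical microglial genes were near their control levels. P2ry12 had 4.26, 4.59 and 4.78 CPM (lowest, median and highest) in control and 3.31, 4.10 and 5.08 CPM in TETA (log2 fold change -0.13, 95% interval -0.34 to 0.07). Csf1r had 10.05, 12.4 and 14.7 CPM in TETA against 10.4, 12.1 and 12.8 CPM in control (log2 0.04, interval -0.12 to 0.21). For both genes the control values lay inside the range of the TETA values. Cx3cr1 had 7.68, 8.69 and 11 CPM in TETA (log2 -0.05, interval -0.23 to 0.13). Tmem119 had 0.780, 1.26 and 1.49 CPM in TETA, from 13 to 34 counts per library, with a wider interval (log2 0.11, -0.29 to 0.52). Sall1 had 24.2, 27 and 32.6 CPM in TETA (log2 -0.06, interval -0.19 to 0.07).

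The complement chains were all slightly above 0 without passing. C1qa had 4.24, 5.09 and 6.30 CPM in TETA (log2 0.03, interval -0.19 to 0.25), and C1qb 4.53, 6.86 and 7.94 CPM (log2 0.03, interval -0.20 to 0.26). C1qc had 5.04, 6.28 and 9.46 CPM (log2 0.19, interval -0.09 to 0.46). These TETA groups spread wider than their controls. Trem2 had 0.837, 1.35 and 1.60 CPM in TETA (log2 -0.12, interval -0.49 to 0.26), and Tyrobp 1.77, 2.39 and 2.78 CPM (log2 0.29, interval -0.02 to 0.59).

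The 3 smallest p-values among the members at E18.5 belonged to Mrc1, Fcer1g and Cd53, none past adjustment. Mrc1 had 1.11, 1.35 and 1.45 CPM in control and 1.30, 1.71 and 3.68 CPM in TETA (log2 0.62, SE 0.23, unadjusted p = 0.0122, adjusted p = 0.884 by edgeR). Its 2 highest TETA values were 3.68 CPM in replicate 3-2 and 2.36 CPM in replicate 1-2, while 2 of the other TETA values lay within the control range. Replicate 3-2 is the library with high border macrophage genes. Among them were F13a1 at 1.93 CPM (43 counts), Lyve1 at 0.764 CPM (17 counts), Cd163 at 0.494 CPM (11 counts) and Pf4 at 0.359 CPM (8 counts). Stab1 had 11.6 CPM there and made up most of the list's sum. In that library H2-Eb1 (0.180 CPM) and Cd74 (0.270 CPM) lay below their group's highest value, and H2-Aa was at 0. Its sum over 7 meningeal and choroid plexus genes, 21.4 CPM, was also the highest of its group. Without that library the Mrc1 estimate was log2 0.34. Fcer1g had 1.2, 1.55 and 2.02 CPM in control and 1.03, 1.22 and 1.37 CPM in TETA (log2 -0.35, SE 0.17, adjusted p = 0.996). Cd53 had 1.11, 1.53 and 2.02 CPM in control and 0.473, 1.2 and 1.53 CPM in TETA (log2 -0.42, SE 0.21, adjusted p = 0.996). Both overlapped between the groups.

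In simulated counts, 200 changed genes were drawn at random from 13794 genes. The same test at E18.5 recovered 88.0% of changes of log2 0.5 and 95.5% of changes of log2 1. These shares are for genes of all levels and were not computed for the members. The adjusted threshold is also easier to pass with 200 changed genes than in the data, where 0 genes were called. For members with few counts the 95% intervals were wide, from -0.14 to 1.07 for Itgam and from -0.57 to 0.46 for Spi1, and differences within them were not detectable at this depth.

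**Figure D4:**
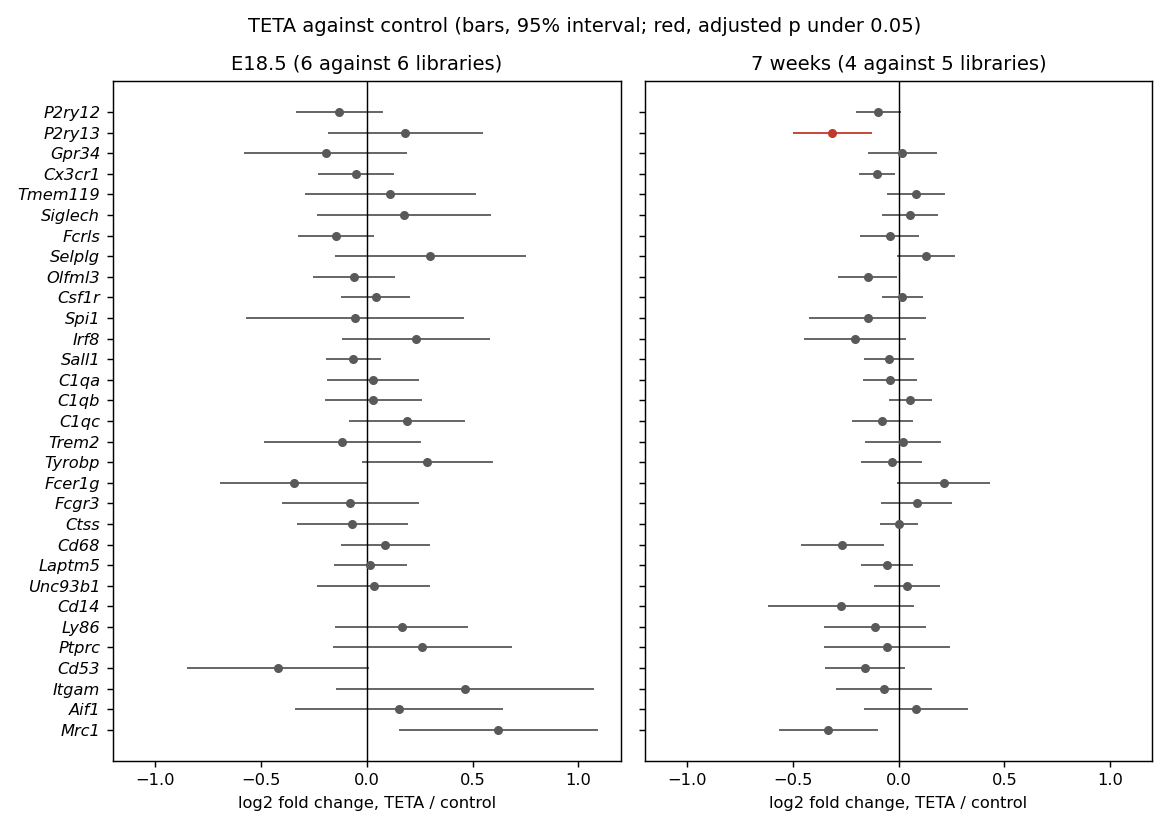
Log2 fold change of TETA against control for each gene at E18.5 (left, 30 genes) and at 7 weeks (right, 31 genes), with 95% intervals from edgeR; red marks an adjusted p under 0.05. Only P2ry13 at 7 weeks is red, and the intervals at 7 weeks are narrower than at E18.5.

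At 7 weeks, where the protocol names prefrontal cortex, 1 of 31 members was called lower in TETA, P2ry13, and 0 were called higher. This is a smaller share than over all 14240 genes tested, of which 9.96% were called, 5.67% higher and 4.28% lower (808 of 1418 calls higher; without TMM factors 1003 of 1483). Estimates lay above 0 for 12 members and below 0 for 19, with a median log2 fold change of -0.05 against 0.00019 for all genes. The summed level was 627 to 703 CPM in control and 640 to 676 CPM in TETA. At an unadjusted p under 0.05 there were 5 members, P2ry13, Mrc1, Cd68, Cx3cr1 and Olfml3, all lower, against 24.0% of all genes in either direction. In 3 members, P2ry13, Mrc1 and Cd68, the groups did not overlap, all with lower TETA values; 5.84% of all genes were lower without overlap and 11.2% were so in either direction.

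P2ry13 had 13.1, 12.6, 13, 12.7 and 12.1 CPM in control and 10.9, 8.0, 9.69 and 11.8 CPM in TETA. All 4 TETA values lay under the lowest control value, and TETA replicate 2 lay furthest down. The level fell to 0.804 of control (log2 -0.31, SE 0.089, adjusted p = 0.0290 by edgeR). The call was lost when any of 5 libraries was left out, TETA replicate 2 (log2 -0.23, adjusted p = 0.0884), TETA replicate 3 (adjusted p = 0.0882) and control replicates 1, 3 and 4 (adjusted p = 0.0587, 0.0542 and 0.0529). P2ry13 (chromosome 3, GRCm38, 59207892 to 59210882, minus strand) and P2ry12 lie inside Med12l, a Mediator subunit gene on the opposite strand, and P2ry12 exons share bases with it; Med12l had 49.6 ± 2.4 CPM (SD, n = 5) in control and 51.0 ± 1.4 (SD, n = 4) in TETA (log2 0.05, SE 0.044, adjusted p = 0.50).

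Mrc1 had 5.99, 5.63, 5.67, 5.99 and 6.43 CPM in control and 4.05, 4.26, 5.38 and 5.03 CPM in TETA. The groups were apart, but the difference did not pass adjustment (log2 -0.33, SE 0.11, adjusted p = 0.0668); without TETA replicate 3 it did (log2 -0.41, adjusted p = 0.0469). Cd68 had 6.92, 7.28, 8.16, 8.15 and 7.83 CPM in control and 6.30, 6.77, 6.46 and 5.74 CPM in TETA (log2 -0.27, SE 0.095, adjusted p = 0.0834). Here the highest TETA value, 6.77 CPM, lay close to the lowest control value. Divided by Csf1r in the same library, Mrc1 and Cd68 remained lower in TETA without overlap (0.787-fold and 0.817-fold), which 2.14% of all genes did. The P2ry13 ratio overlapped between the groups, at 0.113 to 0.135 in control and 0.0733 to 0.126 in TETA (0.797-fold), and 0 of 30 members had a higher ratio without overlap (3.04% of all genes).

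**Figure D5:**
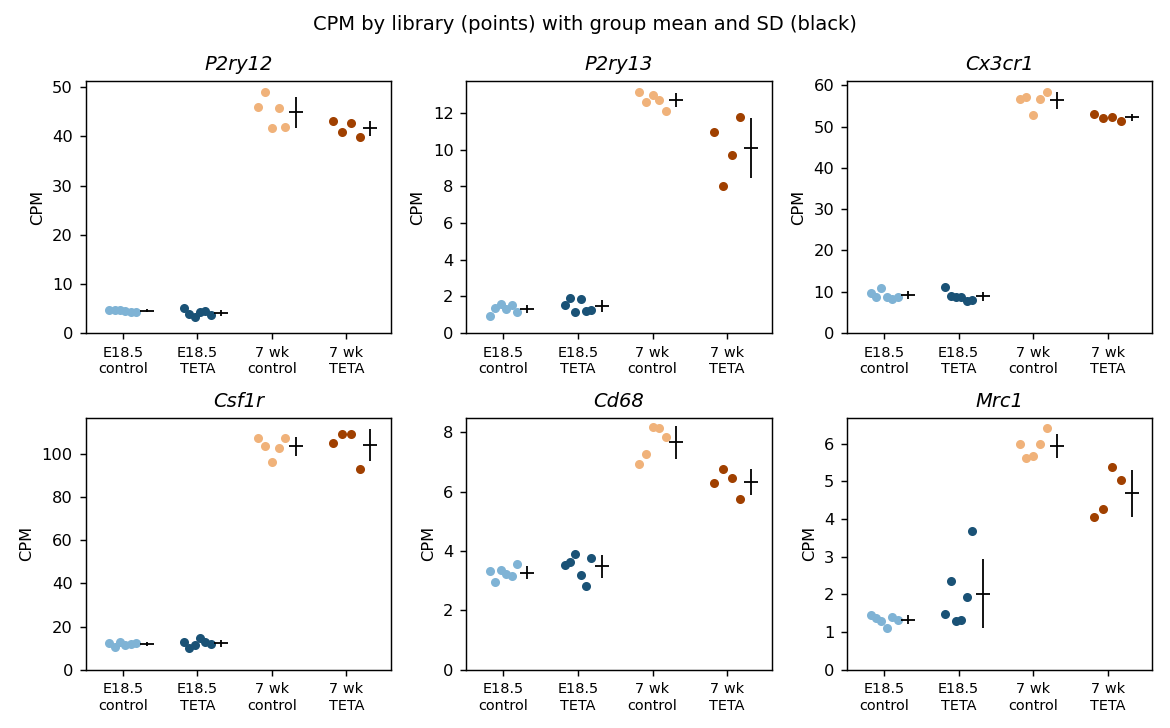
CPM in each library for P2ry12, P2ry13, Cx3cr1, Csf1r, Cd68 and Mrc1 (linear axes from 0), with group mean and SD in black, for the 4 groups. At 7 weeks the TETA points of P2ry13, Cd68 and Mrc1 lie under all control points, those of Csf1r do not, and E18.5 TETA shows 1 high Mrc1 point at 3.68 CPM.

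The other canonical genes did not pass at 7 weeks. P2ry12 had 45.9, 49.0, 41.7, 45.9 and 41.9 CPM in control and 43.1, 40.8, 42.7 and 40.0 CPM in TETA (log2 -0.10, interval -0.20 to 0.01, adjusted p = 0.265). Cx3cr1 had 56.8, 57.2, 52.9, 56.8 and 58.5 CPM in control and 53.1, 52.2, 52.3 and 51.3 CPM in TETA (log2 -0.10, interval -0.19 to -0.02, adjusted p = 0.121). For Cx3cr1 only TETA replicate 1 reached above the lowest control library. Tmem119 had 24.0, 25.9, 22.2 and 24.0 CPM in TETA against 20.4 to 25.1 CPM in control (log2 0.08, interval -0.05 to 0.22). Csf1r had 105, 109, 109 and 93.1 CPM in TETA against 96.1 to 107 CPM in control (log2 0.02, interval -0.08 to 0.12), so the receptor's level overlapped fully. Sall1 had 22.0, 22.2, 20.4 and 23.5 CPM in TETA against 22.1 to 24.4 CPM (log2 -0.05, interval -0.16 to 0.07).

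For the C1q chains the intervals were narrow around 0. C1qa had 36.3, 35.7, 31.1 and 32.5 CPM in TETA against 31.1 to 38.8 CPM in control (log2 -0.04, interval -0.17 to 0.09). C1qb had 37.3, 38.1, 35.9 and 34.6 CPM against 32.9 to 36.9 CPM (log2 0.06, interval -0.05 to 0.16). C1qc had 39.7, 38.1, 33.0 and 35.7 CPM against 32.2 to 43.6 CPM (log2 -0.08, interval -0.22 to 0.07). None of the chains' groups was apart. Trem2 had 12.6, 12.1, 11.5 and 10.9 CPM in TETA against 10.2 to 13.8 CPM in control (log2 0.02, interval -0.16 to 0.20). Tyrobp had 13.6, 11.9, 12.6 and 11.7 CPM against 12.7 to 13 CPM (log2 -0.03, interval -0.18 to 0.11). Of the remaining members the estimates ran from log2 -0.27 for Cd14 to 0.21 for Fcer1g, and none passed.

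Genes listed for other cell types were also compared at 7 weeks, where 9.96% of all genes were called, 5.67% higher and 4.28% lower. All 12 genes of a striatal neuron list were lower, with sums of 1062 to 1303 CPM in control and 481 to 613 CPM in TETA. Of 7 tested meningeal and choroid plexus genes, 3 were lower: Slc6a13, Col1a2 and Col1a1, at log2 -0.47, -0.40 and -0.55. Their list summed to 51.6 to 110 CPM in control and 34.8 to 51.2 CPM in TETA, without overlap. Of 11 tested border macrophage genes, 1 was lower, F13a1 (log2 -0.54, SE 0.16, adjusted p = 0.0382). That is near the share of all genes called, and the list's sum overlapped (32.5 to 35.6 CPM in control, 27.7 to 37.1 CPM in TETA). Of 6 astrocyte genes, 2 were lower, Aldoc (log2 -0.21, SE 0.05) and Aldh1l1 (log2 -0.21, SE 0.057), and the list's sum overlapped (1952 to 2333 CPM in control, 1872 to 2035 CPM in TETA). Single genes passed in 3 other lists: Snap25 of 6 neuronal genes was higher (log2 0.08), Flt1 of 6 endothelial and mural genes was higher (log2 0.22) and Emx1 of 5 cortical identity genes was lower (log2 -0.26). The part of these cell types in the members' values was not tested.

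Genes of the pathways around the members were tested from lists. At E18.5, where 0 of all 13794 genes tested passed, 0 genes of any list passed. Low counts kept part of some lists out of the test at that age. Tested were 6 of 9 genes downstream of TREM2 and Fc receptors and 3 of 8 complement genes beyond C1q. So were 20 of 22 further microglia genes and 7 of 13 genes linked to disease-associated microglia. The counts at 7 weeks stand against 9.96% of all genes called, 5.67% higher and 4.28% lower. At 7 weeks 1 of 11 genes of the CSF1 and TGF-beta list was higher, Tgfb3 (log2 0.31, SE 0.087, adjusted p = 0.0252), and neither ligand of the CSF1 receptor passed (Csf1 log2 0.16, Il34 log2 0.01). Of 8 tested kinases and adaptors downstream of TREM2 and Fc receptors 0 passed, as did 0 of 7 tested complement genes beyond C1q. Of 22 further microglia genes, 2 were higher, among them Csf3r, the G-CSF receptor (log2 0.46, SE 0.13), and 1 was lower, Mef2c (log2 -0.14, SE 0.03), a transcription factor that neurons also make. That list's sum was lower in TETA without overlap, at 1311 to 1371 CPM in control and 1245 to 1293 CPM in TETA. A sum is weighted to the most abundant genes, and the list's median log2 fold change was 0.027, so the list as a whole did not fall. Of 7 tested genes linked to disease-associated microglia, 3 were lower: Axl (log2 -0.18), Fabp5 (log2 -0.18) and Lpl (log2 -0.27), all of which other brain cells also make.

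The last comparison tested whether the TETA effect differed between the ages. It did so for 1 of 31 members, Mrc1, with 7-week minus E18.5 at log2 -0.97 (SE 0.26, adjusted p = 0.0321 by edgeR), against 3.1% of all genes and 1.43% in that direction (245 of 454 calls were higher; without TMM factors 413 of 574). The estimate was above 0 at E18.5 and below 0 at 7 weeks, and at neither age did Mrc1 pass alone. Without E18.5 TETA replicate 3-2, the library high in border macrophage genes, the difference was log2 -0.68 (adjusted p = 0.0724), and the call was also lost without E18.5 control replicate 2-1 or 2-2 or 7-week TETA replicate 1 or 2. For P2ry13 the difference was log2 -0.51 (SE 0.19, adjusted p = 0.167), so its TETA effect at 7 weeks was not shown to differ from that at E18.5. Fcer1g (log2 0.55, adjusted p = 0.121) and Cd68 (log2 -0.36, adjusted p = 0.142) did not pass either.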

How the data were processed

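RNA-seq libraries were made with a stranded mRNA kit, per the labels' protocols. For each age the authors deposited 1 table of raw counts by gene symbol, and reads were aligned with STAR 2.7.1a to mm10 and counted with featureCounts 2.0.1, per the submitters' processing notes; the annotation and strand setting are not given in the sources used here. In the E18.5 table, 1940 rows were at 0 in control replicate 1-1 and were multiples of 11 in every library; these were divided by 11, and 0 members were among them. Columns were matched to samples by name.

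Genes were kept by filterByExpr (minimum count 10), scaled by TMM, and tested with edgeR 4.0.16 (quasi-likelihood, Benjamini-Hochberg adjustment, threshold 0.05) in R 4.3.3: each age alone for TETA against control, and 1 fit of all 4 groups for age and for the difference of the TETA effect. The SE is the log2 fold change divided by the square root of F. CPM use 1 TMM scale over both ages. Exon lengths (all annotated exons of a gene merged) and gene coordinates come from GENCODE M21 (GRCm38). The test was checked on simulated counts. Replicate pairs differed by more than counting noise (lowest chi-square per gene 2.27).

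The members and lists were chosen with earlier results of these data known. All 31 members are given, with library values for 11 canonical ones (P2ry12, Tmem119, Cx3cr1, Csf1r, Sall1, C1qa, C1qb, C1qc, Trem2, Tyrobp, Mrc1), those past the threshold for TETA or the 3 smallest p-values, and the 5 that rose most with age; from other lists, at most 4 genes past the threshold for TETA. Genes named outside that rule (among them Med12l, Il34, Cx3cl1, Csf1, En2, Lyve1, Cd163 and Pf4) were chosen after their values were seen. Alternatives were other filters, scalings and tests (DESeq2 1.42.0, limma 3.58.1 voom), counts as deposited, summed libraries, a replicate block and leaving out each library. A result from the list of further microglia genes is not reported here.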

Additional observations from a re-analysis of the deposited data

Results flagged for a closer look

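In 5 of 124 sets of values examined (31 members in each of 4 groups), 1 library's gap to the nearest of the others was a larger share of the group's whole range than Dixon's 95% value, with gap and range taken on the log2(CPM + 1) scale; chance alone gives about 1 in 20, or 6.2. Fcrls in E18.5 TETA replicate 1-2 was 5.32 CPM against 6.88 to 7.80 in the others (gap 0.666 of the range on that scale, as for the shares that follow). C1qb in E18.5 control replicate 2-2 was 5.40 CPM against 6.53 to 6.96 (0.747). Fcer1g in 7-week TETA replicate 1 was 5.54 CPM against 6.04 to 6.10 (0.902). Ptprc in E18.5 TETA replicate 2-2 was 1.72 CPM against 0.985 to 1.2 (0.673). Aif1 in E18.5 control replicate 1-1 was 1.01 CPM against 0.643 to 0.767 (0.634).

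The TETA effect on Mrc1 differed between the ages by an interaction term (log2 -0.97, edgeR adjusted p = 0.0321); the call did not hold without E18.5 TETA replicate 3-2 (log2 -0.68, adjusted p = 0.0724).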

How the results depend on the processing

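All 31 calls between the ages, in control and in TETA, kept their direction and call under every alternative run. Without TMM factors the median of all genes between the ages in control moved from -0.02 to -0.17 and that of the members from 2.62 to 2.48. Replicate numbers did not pair the libraries (correlations of same-numbered deviations -0.275 to 0.284 over 6 pairs at E18.5, of both signs, and -0.0692 to -0.0295 over 4 pairs at 7 weeks). With a replicate block 0 members were called at E18.5 and 1, P2ry13, at 7 weeks (log2 -0.34, adjusted p = 0.0372), and over all genes 0 and 1072; C1qa (0.00605), Ctss (-0.00396), Gpr34 (-0.00288) and Trem2 (-0.0156) changed sign near 0 at 7 weeks. Genes called at E18.5 over all genes numbered 0, but 10 by DESeq2, 8 with limma quality weights, 2 with summed libraries, 7 without both libraries numbered 1-2 (chosen after seeing the data) and 0 to 7 leaving out 1 library, 7 without TETA replicate 1-2 and 3 without control replicate 3-2; the cause was not tested. At 7 weeks leaving out 1 library gave 0 to 1 called members and 927 to 1392 genes (927 without TETA replicate 3). The interaction gave 0 to 1 members and 290 to 622 genes (290 without 7-week TETA replicate 3). The striatal list's sums do not overlap between the treatments at 7 weeks, so as a covariate (chosen after seeing the data) it cannot be told apart from TETA, and this fit says nothing of the list's part; with it 0 members and 1 gene were called at 7 weeks, Mrc1 was at log2 -1.03 (adjusted p = 0.863), and signs changed for C1qa (0.10), C1qc (0.0981), Cd53 (0.15), Csf1r (-0.077), Fcer1g (-0.15), Fcgr3 (-0.18), Fcrls (0.0456), Gpr34 (-0.13), Laptm5 (0.00881), Ly86 (0.23) and Sall1 (0.0957), none past the threshold. Leaving out 1 library, uncalled estimates crossed 0 at E18.5 for Aif1 (-0.0291 to 0.29), C1qa (-0.0463 to 0.0841), C1qb (-0.0400 to 0.12), Csf1r (-0.024 to 0.0955), Ctss (-0.14 to 0.0077), Cx3cr1 (-0.12 to 0.00663), Laptm5 (-0.0206 to 0.0479), Siglech (-0.0016 to 0.26), Spi1 (-0.28 to 0.0639) and Unc93b1 (-0.0323 to 0.11), and at 7 weeks for C1qa (-0.0779 to 0.00174), Csf1r (-0.00809 to 0.0709), Ctss (-0.0281 to 0.0200), Fcrls (-0.0924 to 0.000966), Gpr34 (-0.0222 to 0.0731), Ptprc (-0.12 to 0.0262), Trem2 (-0.0245 to 0.0948) and Unc93b1 (-0.00855 to 0.0772). At E18.5 few counts per library limit Cd14 (0 to 6), Itgam (5 to 24) and Spi1 (10 to 36).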
